A study of Mus musculus with 20 samples.

Results

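Imprinted genes that act on fetal growth were followed in mouse ovaries around birth, in animals without the oocyte transcription factor gene Figla or without Lhx8, another such gene. The set held 10 genes chosen by symbol, which are H19, Igf2, Igf2r, Dlk1, Meg3, Mest, Peg3, Grb10, Cdkn1c and Plagl1, of 49585 genes counted. All 10 were found in the tables and all 10 passed the filter on low counts in every comparison.

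Imprinted genes are transcribed mainly from the copy inherited from 1 parent, and the difference between the copies goes back to DNA methylation laid down on 1 of them in the germ line. Many act on growth before birth: as a broad rule, paternally expressed members of this set promote growth and maternally expressed members restrain it. Igf2 and H19 share enhancers and an imprinting control region, and Dlk1 and Meg3 form another such pair. The counts were not split by parental allele, so imprinting itself was not measured here.

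RNA was taken from whole ovaries of B6D2F1 mice. Figla knockout ovaries (Figla-/-) and control ovaries (Figla+/- in the genotype field) were taken at embryonic day 18.5 (E18.5) and on the day of birth (P0), and Lhx8 knockout ovaries (Lhx8-/-) and controls at P0; the genotype field calls these controls Lhx8+/- and the library names call them wild type. There were 4 knockout and 4 control libraries of the Figla set at E18.5, 3 and 3 at P0, and 3 Lhx8 knockout and 3 control libraries. At E18.5 replicates 1 and 2 of each genotype were near-identical libraries, which were summed and counted as 1 sample, so every group had 3 samples. Titles and library names disagree on the genotype of 6 of 14 Figla libraries and 6 of 6 Lhx8 libraries, and libraries were grouped by library name. The labels give no animal or litter of origin, so the p-values speak only for the variation among the samples at hand, some of which may be technical.

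The targeted genes went with the library names at P0. Figla was at 0.183 to 0.639 CPM (counts scaled to library size) in Figla knockout ovaries and at 32.9 to 43.2 CPM in controls at P0. At E18.5 Figla was at 0.846 to 1.50 CPM in knockout ovaries, against 22.0, 3.65 and 25.8 CPM in controls. The E18.5 control of 3.65 CPM, replicate 3, stood apart from its group: its germ cell markers summed to 451 CPM, against 1619 and 1784 CPM in the other controls, within the 449.7 to 671 CPM of the E18.5 knockouts. The labels disagree on this sample: the title of E18.5 control replicate 3 calls it a knockout. The title of E18.5 control replicate 4, at 25.8 CPM of Figla, does so too. For the comparisons at E18.5 and between ages, values without E18.5 control replicate 3 are given as well. Lhx8 was at 16.7 to 30.3 CPM in Lhx8 knockout ovaries and at 90.9 to 102 CPM in their controls. Germ cell markers summed to 887 to 979 CPM in Figla knockout ovaries and 2454 to 3683 CPM in controls at P0, and to 844 to 1400 CPM in Lhx8 knockout ovaries and 2006 to 2417 CPM in their controls, in each case with no overlap. Libraries held 5583392 to 13408022 counts in the Figla set and 8297204 to 9978350 counts in the Lhx8 set. All 10 stromal and all 10 pregranulosa markers had counts in every group, Zp2 and Zp3 of the 12 germ cell markers were at 0 in Figla knockout ovaries at P0, and skeletal muscle markers summed to 0.904 to 28.9 CPM.

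In GRCm38 coordinates, 4 of the genes lie on chromosome 7. H19 is at chr7:142575529-142578143 and Igf2 at chr7:142650766-142666816, both on the minus strand and 72622 bases apart. Cdkn1c is at chr7:143458339-143461050 and Peg3 at chr7:6703892-6730431, also on the minus strand. Dlk1, at chr12:109452823-109463336, and Meg3, at chr12:109541001-109571726, lie 77664 bases apart on the plus strand. The others are Igf2r at chr17:12682406-12769664 (minus), Mest at chr6:30723547-30748465 (plus), Grb10 at chr11:11930508-12038683 (minus) and Plagl1 at chr10:13060504-13131694 (plus).

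RefSeq promoter windows of 300 bases (250 before to 50 after a transcription start, build GRCm38.p6) were matched for 8 of the 10 genes, with 15 windows in all. No window was matched for H19 and Cdkn1c. Each window is printed 5′ to 3′ on the gene's strand. The windows shown belong to the growth factor Igf2, to Dlk1 and to the signalling adaptor Grb10, which are 3 of the genes that were higher in Lhx8 knockout ovaries. Capitals mark the hexamer TGCCGC or its reverse complement GCGGCA, the core of the motif bound by ZFP57, a zinc finger protein that keeps imprints in the early embryo. The Igf2 window is 1 of 4 for that gene (chr7:142661222-142661521, minus strand), the Grb10 window 1 of 2 (chr11:12037371-12037670, minus strand), and the Dlk1 window the only one matched (chr12:109452573-109452872, plus strand).
Igf2: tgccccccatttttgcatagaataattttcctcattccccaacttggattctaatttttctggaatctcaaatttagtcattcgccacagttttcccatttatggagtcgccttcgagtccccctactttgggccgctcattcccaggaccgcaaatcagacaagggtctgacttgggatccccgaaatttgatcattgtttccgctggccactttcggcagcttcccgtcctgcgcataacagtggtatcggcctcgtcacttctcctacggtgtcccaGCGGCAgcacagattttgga
Grb10: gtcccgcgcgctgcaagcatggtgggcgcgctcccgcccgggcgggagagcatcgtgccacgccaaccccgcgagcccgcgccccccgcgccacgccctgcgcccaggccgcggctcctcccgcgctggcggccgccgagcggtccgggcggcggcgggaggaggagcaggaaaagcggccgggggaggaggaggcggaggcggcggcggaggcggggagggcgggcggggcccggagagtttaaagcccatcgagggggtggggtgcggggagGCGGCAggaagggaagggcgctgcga
Dlk1: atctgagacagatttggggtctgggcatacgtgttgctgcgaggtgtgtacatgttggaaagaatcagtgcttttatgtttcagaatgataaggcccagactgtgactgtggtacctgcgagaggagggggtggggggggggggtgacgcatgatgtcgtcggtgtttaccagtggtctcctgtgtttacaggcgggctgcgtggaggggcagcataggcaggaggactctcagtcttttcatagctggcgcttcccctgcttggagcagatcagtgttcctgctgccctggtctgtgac

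The hexamer occurred on either strand in 6 of the 15 windows, against 11.6% of all 32851 windows of this length. The 6 were the only Plagl1 window, a single window each of Grb10, Igf2 and Meg3, and 2 overlapping windows of Mest. The other windows of Grb10, Igf2, Meg3 and Mest lacked it. Both Mest windows hold the same sites, so they are not separate matches. The Igf2 and Grb10 windows printed are the ones that hold the hexamer. The core GCCATNTT of the motif of YY1, another zinc finger protein, occurred in 0 of the 15 windows and in 6.05% of all windows. The 15 windows held 13 CpG dinucleotides at the median, against 7 over all windows. The hexamer itself contains a CpG, so its share over all windows is not a background matched for CpG content. Among the windows printed, that of Grb10 held 45 CpGs, that of Igf2 held 14 and that of Dlk1 held 9. A match describes these letters only, and no match says that they are absent from these windows.

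H19 and Igf2 also carry microRNA hairpins within their transcription units. Mature microRNAs were not measured by these libraries, and the sequences from RefSeq (GRCm38.p6) are given to show what those loci encode, with the seed (bases 2 to 8) in capitals. The 4 seeds differ from each other.
mmu-miR-675-5p (H19): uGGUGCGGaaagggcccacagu
mmu-miR-675-3p (H19): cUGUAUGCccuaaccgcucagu
mmu-miR-483-5p (Igf2): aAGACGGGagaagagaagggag
mmu-miR-483-3p (Igf2): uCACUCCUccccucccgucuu

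The 10 genes were abundant transcripts of the ovary at both ages. Together they took 0.539% to 1.19% of all counts in the Figla libraries and 1.53% to 2.49% in the Lhx8 libraries. H19 ranked 8 by CPM among 36943 genes with counts in the Figla set and 2 among 26816 genes in the Lhx8 set. H19 alone took 1.16% to 1.94% of the counts in the Lhx8 libraries. The lowest rank by CPM among the 10 was 743 in the Figla set, for Plagl1. In the Lhx8 set it was 7365, for Mest, while Igf2r ranked 2291 and Grb10 ranked 1509. The Lhx8 libraries read the 3′ end of transcripts, so levels were compared between genes only in the Figla set, per kilobase of exon (FPKM on the scaled library sizes).

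H19, a long non-coding RNA expressed from the maternal copy, was the highest of the 10 in all 4 Figla groups. It averaged 1496 ± 258 FPKM in Figla knockout ovaries and 1038 ± 172 FPKM in controls at P0 (SD, n = 3 each). Igf2, the insulin-like growth factor expressed from the paternal copy, came next, at 309 ± 51.9 FPKM in knockout ovaries and 195 ± 39.4 FPKM in controls at P0. Its range did not overlap that of H19 above it or of the gene below it in any of the 4 groups.

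The middle of the order differed between genotypes at P0. In knockout ovaries Cdkn1c, an inhibitor of cyclin-dependent kinases, ranked 3 at 156 ± 37.4 FPKM, overlapping Peg3, a zinc finger protein, at 138 ± 11.7 FPKM. In controls Peg3 ranked 3 at 118 ± 20.1 FPKM and Cdkn1c ranked 5 at 69.7 ± 17.5 FPKM, overlapping Mest at 75.0 ± 14.4 FPKM and Dlk1 at 66.6 ± 2.92 FPKM. At E18.5 Cdkn1c and Peg3 were neighbours with overlapping ranges in both genotypes.

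At the low end of the order stood Igf2r, Grb10, Plagl1 and Meg3, in that order in all 4 groups. Igf2r averaged 55.3 ± 3.45 FPKM in knockout ovaries and 53.2 ± 6.89 FPKM in controls at P0, and Meg3 averaged 19.4 ± 4.61 FPKM in knockout ovaries and 15.2 ± 4.55 FPKM in controls. Plagl1 and Meg3 overlapped in all groups but the P0 controls. The order by TPM was the same in all 4 groups. Without E18.5 control replicate 3 the order in E18.5 controls was the same, and H19 averaged 1052 FPKM there, against 1194 FPKM with it.

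**Figure D1:**
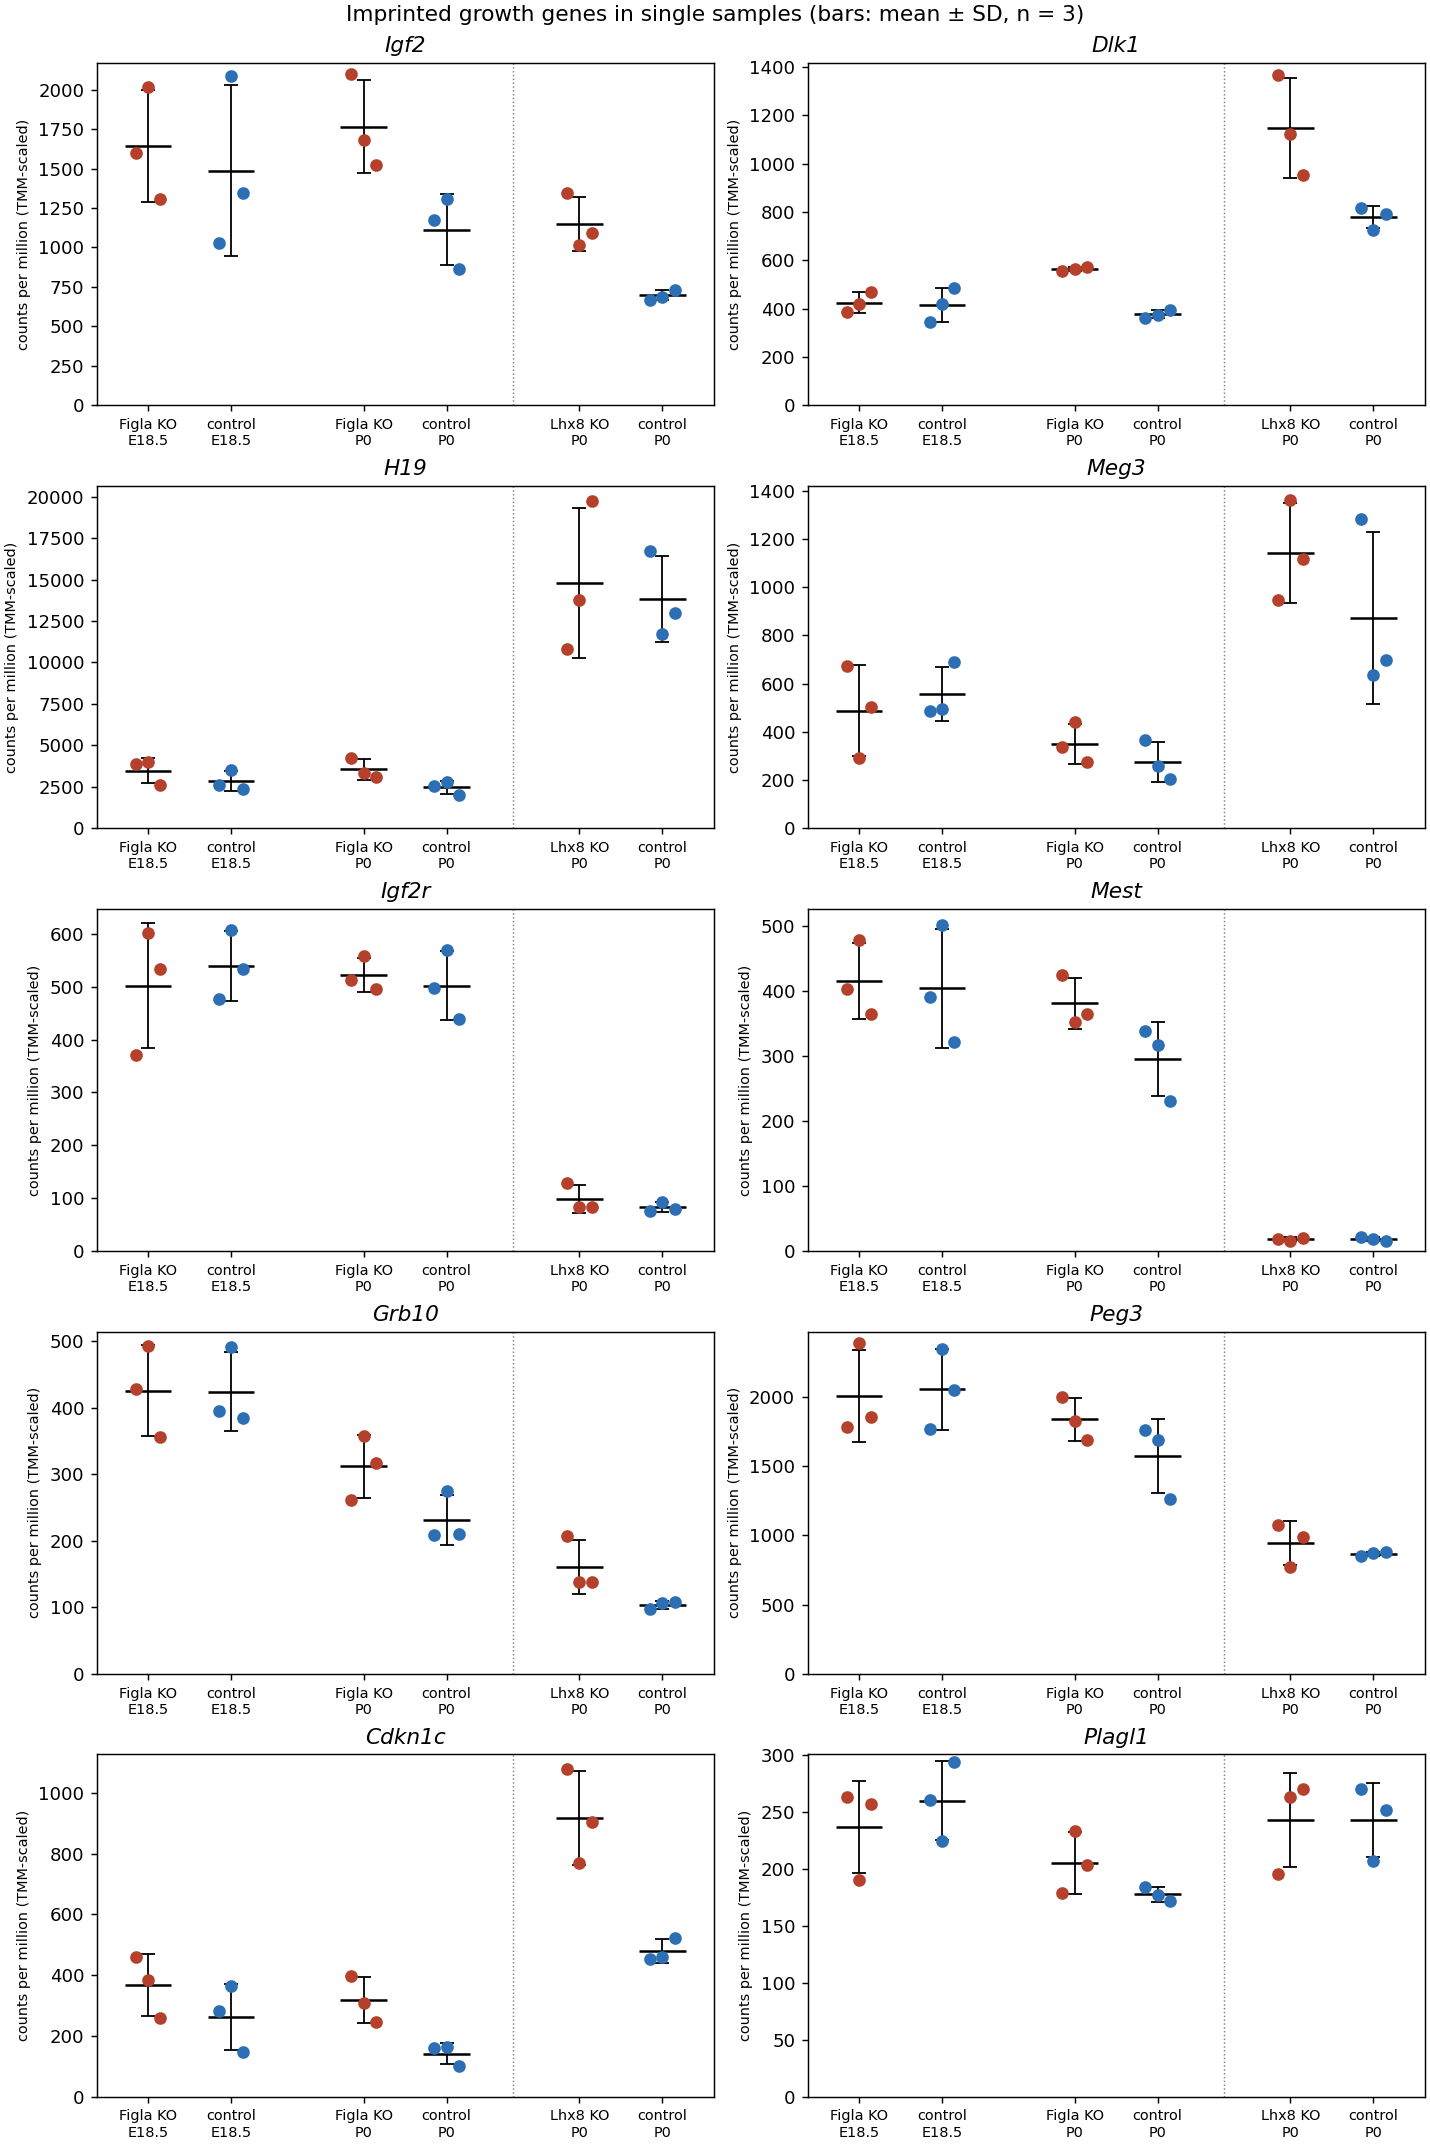
CPM on TMM-scaled library sizes for each of the 10 genes, 1 point per sample, with knockout samples in red and controls in blue, and horizontal bars with whiskers for mean ± SD (n = 3 samples a group). The dotted line separates the Figla libraries from the Lhx8 libraries, whose levels are not on the same scale. Dlk1 lies between 556 and 574 CPM in Figla knockout ovaries at P0, above all controls of that age.

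At birth, 4 of the 10 genes were higher in Figla knockout ovaries than in controls and 0 were lower (edgeR quasi-likelihood test, Benjamini-Hochberg adjusted over all 17321 genes tested). They were Cdkn1c, Igf2, Dlk1 and H19. Over all genes tested, 16.0% were called in either direction and 5.12% were called higher. All 10 fold changes were positive, with a median log2 fold change of 0.42, against 0.02 over all genes tested. Knockout samples lay wholly above controls for 5 of the 10, the 4 above and Mest, against 14.2% of all genes tested.

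In Lhx8 knockout ovaries at birth 4 of the 10 were higher than in controls and 0 were lower, by the same test over 15274 genes. They were Cdkn1c, Igf2, Grb10 and Dlk1. The background was 10.4% of genes called in either direction and 3.06% called higher. The median log2 fold change of the 10 was 0.34, against 0.05 over all genes, and the same 4 genes had knockout samples wholly above controls, against 14.7% of genes. No model held both knockouts, which were measured with different library kits, so differences between the knockouts were not tested.

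**Figure D2:**
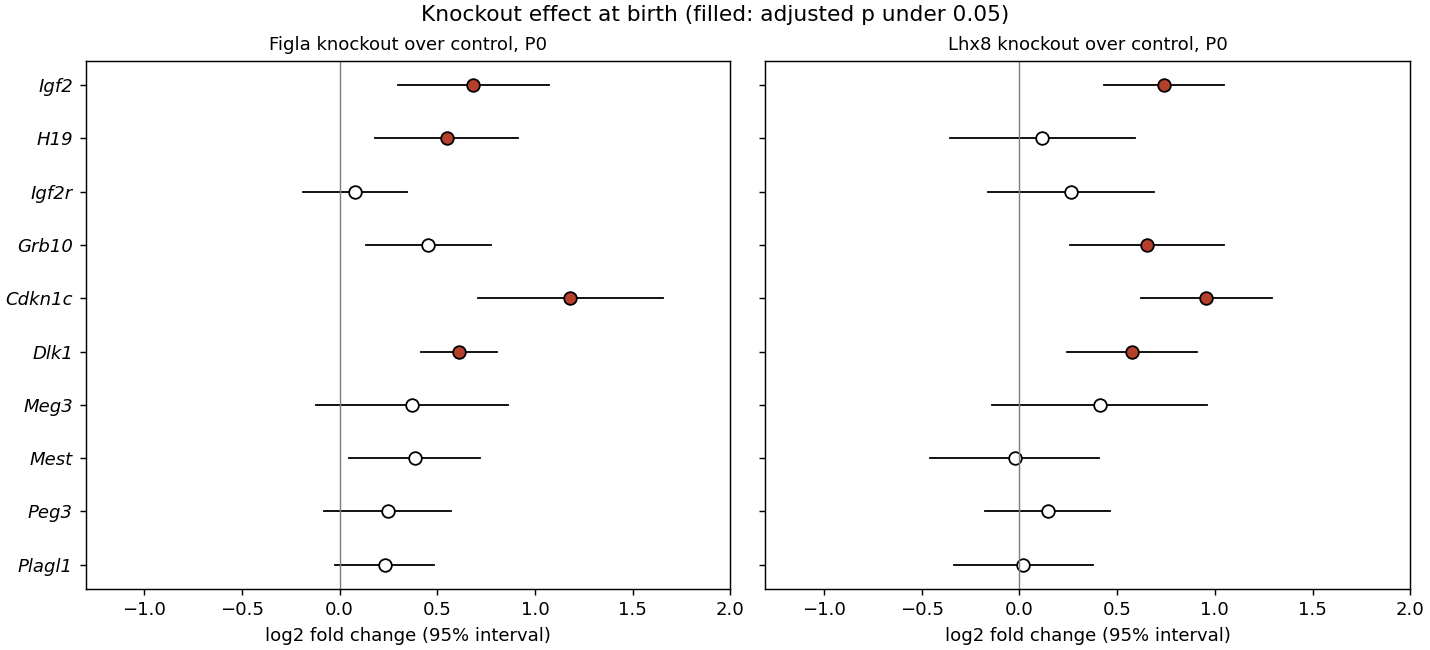
Log2 fold change of each gene, knockout over control at P0, for Figla on the left and Lhx8 on the right, with 95% intervals (edgeR, n = 3 samples a group) and filled points for an adjusted p under 0.05. Cdkn1c has the highest estimate in both panels, at 1.18 and 0.96, and Igf2r and Plagl1 are open in both.

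Cdkn1c, a maternally expressed gene whose product holds cells out of the cell cycle, had 398, 309 and 246 CPM in Figla knockout ovaries at P0, against 161, 164 and 101 CPM in controls. All 3 knockout samples stood above all 3 controls. The log2 fold change was 1.18 ± 0.21 (SE; adjusted p = 0.00411 by edgeR).

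Cdkn1c in the Lhx8 set had 1077, 769 and 902 CPM in knockout ovaries, against 452, 461 and 523 CPM in controls. The groups were again apart, and the log2 fold change was 0.96 ± 0.15 (adjusted p = 0.00324 by edgeR). Exons of the antisense gene Gm44732 cover 30.7% of the exon bases of Cdkn1c, and reads there could be counted to neither gene. Other genes cover 0 of its last 500 exon bases, the stretch that the 3′ Lhx8 libraries read.

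Igf2 had 2096, 1679 and 1522 CPM in Figla knockout ovaries at P0, against 1173, 1304 and 865 CPM in controls. The lowest knockout sample exceeded the highest control. The log2 fold change was 0.69 ± 0.17 (adjusted p = 0.0232 by edgeR), and the call was lost without knockout replicate 1 (adjusted p = 0.0798) or 2 (0.0561).

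Igf2 in the Lhx8 set had 1344, 1014 and 1094 CPM in knockout ovaries, against 671, 688 and 734 CPM in controls. Controls lay within a narrow band below every knockout sample. The log2 fold change was 0.74 ± 0.14 (adjusted p = 0.00835 by edgeR), and the call was lost without control replicate 1 (adjusted p = 0.0526) or 2 (0.0549).

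H19 had 4244, 3308 and 3094 CPM in Figla knockout ovaries at P0, against 2577, 2801 and 2008 CPM in controls. The groups did not overlap, the log2 fold change was 0.55 ± 0.16 and the adjusted p was 0.0466 by edgeR. That call was lost when any of knockout replicates 1, 2 and 3 or control replicates 1 and 3 was left out (adjusted p = 0.0584 to 0.143), and also in 1 model of all Figla groups (adjusted p = 0.171), in which Igf2 was lost too (0.151).

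H19 in the Lhx8 set had 10839.9, 13774 and 19766 CPM in knockout ovaries, against 16741, 11733 and 12983 CPM in controls. The groups overlapped, and both the lowest and the highest sample were knockouts. The log2 fold change was 0.12 ± 0.21 with a 95% interval of -0.35 to 0.59 (adjusted p = 0.757 by edgeR).

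Dlk1, a paternally expressed transmembrane protein of the Delta family, had 556, 565 and 574 CPM in Figla knockout ovaries at P0, against 361, 375 and 394 CPM in controls. Samples of each group lay close together and far from the other group, and the log2 fold change was 0.61 ± 0.09 (adjusted p = 0.00110 by edgeR). In the Lhx8 set Dlk1 had 1366, 1121 and 953 CPM in knockout ovaries, against 818, 728 and 792 CPM in controls. The groups did not overlap and the log2 fold change was 0.58 ± 0.15 (adjusted p = 0.0359 by edgeR). The Dlk1 call in the Lhx8 set was lost without knockout replicate 2 or any 1 of the 3 controls (adjusted p = 0.0729 to 0.153).

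Grb10, which encodes an adaptor that dampens signalling from the insulin and IGF1 receptors, had 208, 138 and 137 CPM in Lhx8 knockout ovaries, against 97.3, 106 and 108 CPM in controls. Every knockout sample was above every control, and the log2 fold change was 0.65 ± 0.18 (adjusted p = 0.0426 by edgeR). That call was lost without knockout replicate 1 or any 1 of the 3 controls (adjusted p = 0.0544 to 0.158). In the Figla set at P0 Grb10 had 262, 357 and 316 CPM in knockout ovaries, against 209, 275 and 211 CPM in controls. The groups overlapped, with a log2 fold change of 0.45 ± 0.15 that did not pass (adjusted p = 0.0576 by edgeR). It passed without Figla knockout replicate 1 (adjusted p = 0.0369) or control replicate 2 (0.0205).

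Igf2r, the maternally expressed receptor that carries IGF2 to lysosomes, passed in neither knockout. It had 512, 558 and 495 CPM in Figla knockout ovaries at P0, against 497, 569 and 439 CPM in controls, and its log2 fold change was 0.08 with a 95% interval of -0.19 to 0.34. In Lhx8 knockout ovaries it had 129, 83.3 and 83.0 CPM, against 75.1, 93.6 and 80.4 CPM in controls, with a log2 fold change of 0.26 (95% interval -0.16 to 0.69).

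Meg3, a maternally expressed long non-coding RNA, had 338, 440.0 and 275 CPM in Figla knockout ovaries at P0, against 364, 259 and 203 CPM in controls. The log2 fold change was 0.37 with a 95% interval of -0.12 to 0.86. In Lhx8 knockout ovaries Meg3 had 946, 1361 and 1118 CPM, against 1283, 634 and 697 CPM in controls. Control replicate 1 stood well above the other two controls, and without it the log2 fold change was 0.79 (adjusted p = 0.0448 by edgeR), against 0.41 with it (adjusted p = 0.312).

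Mest, Peg3 and Plagl1, paternally expressed genes for an enzyme of the alpha/beta hydrolase fold and 2 zinc finger proteins, passed in neither knockout. Mest had 426, 353 and 365 CPM in Figla knockout ovaries at P0, against 339, 318 and 232 CPM in controls (log2 fold change 0.38, adjusted p = 0.113 by edgeR). In the Lhx8 set Mest had only 15.8 to 20.9 CPM in knockout ovaries and 16.2 to 22.2 CPM in controls. Exons of the opposite-strand gene Copg2 cover 100% of the last 500 exon bases of Mest, the stretch these 3′ libraries read, so reads of Mest there could be counted to neither gene. Exons of other genes also cover 85.2% of that stretch of Meg3, whose levels in these libraries are given above.

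Peg3 had 1999, 1825 and 1688 CPM in Figla knockout ovaries at P0, against 1760.3, 1690.0 and 1265 CPM in controls, with a log2 fold change of 0.25 (95% interval -0.08 to 0.57). Its log2 fold change in Lhx8 knockout ovaries was 0.14 (95% interval -0.18 to 0.46). Plagl1, which in mice acts on the expression of other imprinted genes, had log2 fold changes of 0.23 (95% interval -0.02 to 0.48) in Figla knockout ovaries and 0.02 (95% interval -0.34 to 0.38) in Lhx8 knockout ovaries at P0. The groups of both genes overlapped in both knockouts.

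The count of members called at P0 depended on single samples. Without Figla knockout replicate 2 it was 2 of 10, against 4 with all samples. Without Lhx8 control replicate 1, 2 or 3 it was 2, 1 and 2 of 10. Cdkn1c stayed called in both knockouts, and Dlk1 in the Figla knockout, whichever sample was left out. Without the low-count filter 7 of 10 were called in the Figla set, with Grb10, Mest and Meg3 added. Grouped by title instead, 0 of 10 were called in the Figla set, and in the Lhx8 set, where titles exchange the groups, the 4 were called lower.

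Summed markers of several somatic cell types were also higher in the knockouts at P0. For the counts of markers called, the shares over all genes were 16.0% in either direction and 5.12% higher in the Figla set. They were 10.4% and 3.06% in the Lhx8 set. Of 10 stromal markers, 7 were higher in Figla knockout ovaries at P0 and 0 were lower, with a median log2 fold change of 0.49, and their summed level was 6522 to 7459 CPM in knockout ovaries and 4570.0 to 5690 CPM in controls. In Lhx8 knockout ovaries 4 of 10 were higher and 0 lower, with a median of 0.52, and the sums were 4934 to 5723 CPM in knockout ovaries and 3339 to 3782 CPM in controls. Among them, Col3a1, a fibrillar collagen, had log2 fold changes of 0.48 in Figla and 0.72 in Lhx8 knockout ovaries. In Figla knockout ovaries 4 of 6 endothelial markers were also higher, with sums of 439 to 504 CPM in knockout ovaries and 270.3 to 374 CPM in controls. Pregranulosa markers had 2 of 10 higher and 0 lower in Figla knockout ovaries, with sums of 2056 to 2185 CPM in knockout ovaries and 1320.2 to 1741 CPM in controls. In the same ovaries the sums of smooth muscle markers (138 to 152 CPM, against 101 to 109 CPM in controls), macrophage markers (55.6 to 63.2, against 38.6 to 47.1 in controls), mesonephric duct markers (159 to 237, against 112 to 156 in controls) and steroidogenic markers (289 to 321, against 221 to 257 in controls) lay wholly above controls. So did, in Lhx8 knockout ovaries, those of pregranulosa markers (1479 to 1719 CPM, against 1249 to 1395 CPM in controls), surface epithelium markers (553 to 637, against 412 to 545 in controls) and mesonephric duct markers (187 to 251, against 152 to 172 in controls). Of 6 steroidogenic markers, 0 were called higher in Figla knockout ovaries and 1 was called lower, with a log2 fold change of -4.42. Called higher there were 2 of 6 smooth muscle, 1 of 5 macrophage and 0 of 5 mesonephric duct markers tested. In Lhx8 knockout ovaries 2 of 9 pregranulosa, 1 of 6 surface epithelium and 1 of 5 mesonephric duct markers tested were called higher. Sums of surface epithelium, skeletal muscle and erythroid markers overlapped in the Figla set. In the Lhx8 set those of smooth muscle, skeletal muscle, endothelial, macrophage, erythroid and steroidogenic markers overlapped. Of all single genes, 14.2% lay wholly above controls in the Figla set and 14.7% in the Lhx8 set. The part of the somatic markers in the differences of the imprinted genes was not tested. In bulk tissue, fewer cells of a type and less RNA per cell cannot be told apart.

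To set the members beside the stroma within each sample, their counts were divided by the summed counts of the 10 stromal markers. Cdkn1c had 61.0, 41.4 and 36.9 counts per 1000 stromal counts in Figla knockout ovaries at P0, against 35.2, 28.9 and 21.0 in controls. In the Lhx8 set it had 188, 141 and 183 counts per 1000 stromal counts in knockout ovaries, against 124, 138 and 138 in controls. Knockout samples lay above all controls in both sets, by a narrow margin in each, and the ratio of group means was 1.64 for Figla and 1.28 for Lhx8.

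By this measure 1 of the 10 genes, Cdkn1c, had knockout samples wholly above controls in each knockout, as did 1.34% of all genes in the Figla set and 1.45% in the Lhx8 set. Igf2 had 258 ± 54.8 counts per 1000 stromal counts in Figla knockout ovaries and 222 ± 39.0 in controls, and 214 ± 25.6 in Lhx8 knockout ovaries and 195 ± 11.1 in controls. Dlk1 had 82.3 ± 5.75 in Figla knockout ovaries and 75.6 ± 8.42 in controls, and 212 ± 23.6 in Lhx8 knockout ovaries and 217 ± 7.44 in controls. Grb10 had 45.2 ± 4.31 in Figla knockout ovaries and 45.9 ± 2.22 in controls, and 29.8 ± 5.75 in Lhx8 knockout ovaries and 29.0 ± 2.52 in controls (SD, n = 3 each). The groups of these 3 genes, and of H19, overlapped in both knockouts.

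Some members lay wholly below controls on the same scale. Igf2r had 74.2 to 78.5 counts per 1000 stromal counts in Figla knockout ovaries and 91.3 to 109 in controls, where 48.5% of all genes lay wholly below. Mest, Peg3 and Plagl1 lay below controls in the Lhx8 set, where 52.9% of genes did. Relative to the summed pregranulosa markers, Cdkn1c had 183, 150.2 and 113 counts per 1000 in Figla knockout ovaries, against 111, 94.5 and 76.5 in controls, and 643, 520 and 525 in Lhx8 knockout ovaries, against 362, 366 and 375 in controls. Igf2 also lay wholly above controls on that scale in the Lhx8 set, at 802, 686 and 637 in knockout ovaries, against 537, 547 and 526 in controls, and overlapped in the Figla set. Of all genes 1.27% lay wholly above in the Figla set and 3.84% in the Lhx8 set. Igf2r and Peg3 lay wholly below controls in the Figla set, with means of 245 and 860.4 in knockout ovaries and 334 and 1049 in controls, where 53.6% of all genes did. In the Lhx8 set 0 of the 10 lay wholly below, where 35.4% of genes did.

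**Figure D3:**
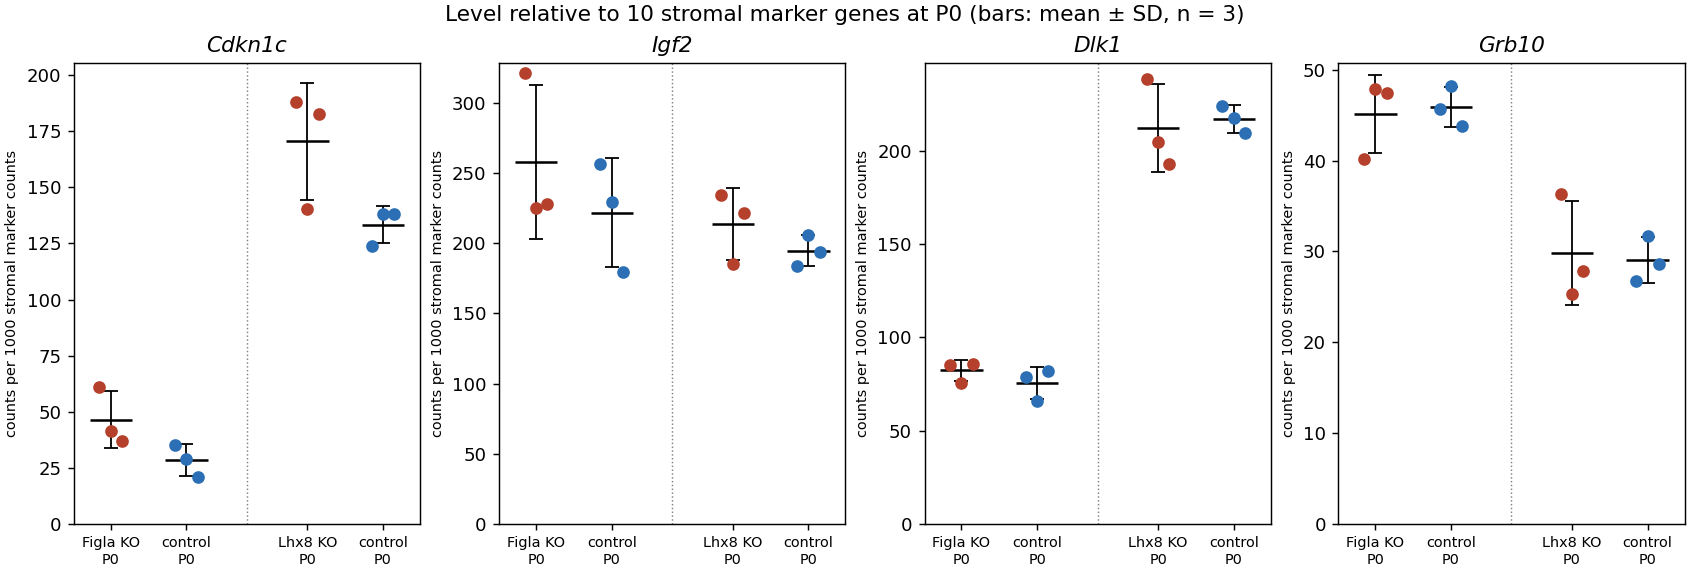
Counts of Cdkn1c, Igf2, Dlk1 and Grb10 per 1000 summed counts of 10 stromal markers at P0, 1 point per sample, knockouts in red and controls in blue, with mean ± SD (n = 3). Cdkn1c points of knockout samples lie above their controls in both sets, while the groups overlap for the other 3 genes.

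Before birth no member passed the test of the Figla genotype. At E18.5, 0 of the 10 were called by edgeR, against 0.00620% of all 16131 genes (1 gene), with 0 of 10 members at an unadjusted p under 0.05 and 0 called by DESeq2, which called 0.638% of all genes. Over all genes 607 had an unadjusted p under 0.05. The ranges of knockout and control samples overlapped for all 10 genes with all samples, where 3.49% of all genes had knockout samples wholly higher and 3.83% wholly lower. Log2 fold changes ran from -0.20 for Meg3 to 0.47 for Cdkn1c.

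Spread between samples was wide at that age. Cdkn1c had 461, 385 and 259 CPM in Figla knockout ovaries at E18.5, against 281, 363 and 147 CPM in controls, and its 95% interval of -0.33 to 1.28 on the log2 scale includes the estimate at P0. Igf2 had 1599, 2015 and 1309 CPM in knockout ovaries, against 1031, 2084 and 1348 CPM in controls. Dlk1 had 386, 421 and 470 CPM in knockout ovaries, against 344, 418 and 484 CPM in controls, a log2 fold change of 0.03 with a 95% interval of -0.39 to 0.46. Without control replicate 3, whose Figla level stood apart, 0 of 10 members and 89 of all genes were called by edgeR, and the log2 fold changes were 0.81 for Cdkn1c, 0.49 for Igf2 and 0.06 for Dlk1. H19 had 3863, 3971 and 2609 CPM in knockout ovaries, against 2603, 3508 and 2386 CPM in controls. Without control replicate 3 all H19 knockouts stood above the controls, as for 7.75% of all genes. The margin was narrow, with the lowest knockout at 2609 CPM and the highest remaining control at 2603 CPM. The log2 fold change of H19 was then 0.51 (adjusted p = 0.986 by edgeR), against 0.29 with that sample. Per stromal count and per pregranulosa count H19 overlapped without that sample too. Grouped by title, with 4 samples titled knockout and 2 titled control, 0 of 10 members and 1093 of all genes were called. Summed germ cell markers were 449.7 to 671 CPM in knockout ovaries and 451 to 1784 CPM in controls. Pregranulosa markers were wholly higher, at 1904 to 2377 CPM in knockout ovaries and 1616 to 1816 CPM in controls. So were endothelial markers, narrowly, at 429.3 to 438.4 CPM in knockout ovaries and 420.5 to 429.0 CPM in controls. Steroidogenic markers were also wholly higher, at 262 to 297 CPM in knockout ovaries and 223 to 241 CPM in controls, as were erythroid markers, whose values are given further below. Summed stromal markers overlapped, at 4326 to 6652 CPM in knockout ovaries and 3966 to 7444 CPM in controls. Sums of smooth muscle, skeletal muscle, macrophage, surface epithelium and mesonephric duct markers overlapped too.

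The Figla effect at P0 minus that at E18.5 was tested as an interaction. It was positive for all 10 genes, with a median of 0.42 against 0.01 over all 18379 genes, but 0 of the 10 passed by edgeR, where 0% of all genes did. Dlk1 alone had an unadjusted p under 0.05 (0.59 ± 0.20 on the log2 scale, unadjusted p = 0.0120, adjusted p = 0.913). DESeq2 called 0 of the 10 and 0% of all genes. Without E18.5 control replicate 3 the median of the 10 was 0.28 and 0 passed, and the term was 0.40 for Cdkn1c and 0.23 for Igf2, against 0.71 and 0.56 with it. The P0 effects are therefore not shown to differ from those at E18.5. All 10 stromal markers were positive in the same term, with a median of 0.53.

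Between E18.5 and P0 the control ovaries showed lower point estimates for all 10 genes. None passed by edgeR in 1 model of all Figla groups, where 0% of all genes did, although 6 of the 10 had an unadjusted p under 0.05 and DESeq2 called 4, all lower at P0, where it called 9.22% of all genes in either direction and 3.07% lower. Over all genes, 4254 had an unadjusted p under 0.05. The median log2 fold change of the 10, P0 over E18.5, was -0.49, against -0.02 over all genes.

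Grb10 had 209, 275 and 211 CPM in control ovaries at P0, against 395, 492 and 385 CPM at E18.5. No P0 sample reached the lowest E18.5 sample, and the log2 difference was -0.93 ± 0.18 (adjusted p = 0.0605 by edgeR). Plagl1 had 184, 177 and 171 CPM at P0, against 260.5, 225 and 294 CPM at E18.5, a log2 difference of -0.61 ± 0.15 (adjusted p = 0.0618 by edgeR). Meg3 had 364, 259 and 203 CPM at P0, against 487, 496 and 688 CPM at E18.5, a log2 difference of -1.07 ± 0.29 (adjusted p = 0.0751 by edgeR).

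With Peg3, these made 4 of the 10 genes whose P0 controls lay wholly below the E18.5 controls, where 10.5% of all genes did. Without E18.5 knockout sample 1-2, Grb10 and Plagl1 passed (adjusted p = 0.0449 and 0.0492 by edgeR), and without E18.5 control replicate 4, Grb10 and Cdkn1c passed (0.0318 and 0.0437). The 4 called by DESeq2 were Grb10, Meg3, Plagl1 and Cdkn1c. Without E18.5 control replicate 3 the median of the 10 was -0.32, 0 passed by edgeR, and Igf2 had a log2 difference of -0.14, against -0.48 with it. The log2 difference of Cdkn1c was -0.63 without it and -0.94 with it, and that of H19 was -0.06 without it and -0.26 with it. Grb10, Meg3, Peg3 and Plagl1 lay wholly below without it too, where 14.2% of all genes did. Summed stromal markers were 4570.0 to 5690 CPM in P0 controls and 3966 to 7444 CPM in E18.5 controls, which overlapped. Endothelial markers were wholly lower, at 270.3 to 374 CPM in P0 controls and 421 to 429 CPM in E18.5 controls, and so were smooth muscle markers, at 101 to 109 CPM in P0 controls and 114 to 173 CPM in E18.5 controls. Germ cell markers were wholly higher, at 2454 to 3683 CPM in P0 controls and 451 to 1784 CPM in E18.5 controls. The part of these markers in the age differences was not tested.

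In Figla knockout ovaries the same comparison gave a median log2 difference of -0.15 over the 10 genes, against -0.01 over all genes, and 0 of 10 passed by edgeR, where 0.00544% of all genes did. Dlk1 and Grb10 were the 2 with an unadjusted p under 0.05, and DESeq2 called 0 of the 10 and 1.72% of all genes. Dlk1 had 556, 565 and 574 CPM at P0, against 386, 421 and 470 CPM at E18.5 in knockout ovaries. All P0 samples were above all E18.5 samples, which was so for 11.5% of all genes, and the log2 difference was 0.39 ± 0.14 (adjusted p = 0.307 by edgeR). Grb10 had a log2 difference of -0.47 ± 0.18 (adjusted p = 0.310 by edgeR). Germ cell markers in knockout ovaries were wholly higher at P0, at 887 to 979 CPM, against 449.7 to 671 CPM at E18.5. Endothelial markers were too, narrowly, at 438.6 to 503.7 CPM against 429.3 to 438.4 CPM. Erythroid markers were wholly lower, at 218 to 914 CPM against 1084 to 2932 CPM, and the other marker sums overlapped. The part of these markers in the differences was not tested. The knockout and control comparisons are the parts of the interaction above.

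**Figure D4:**
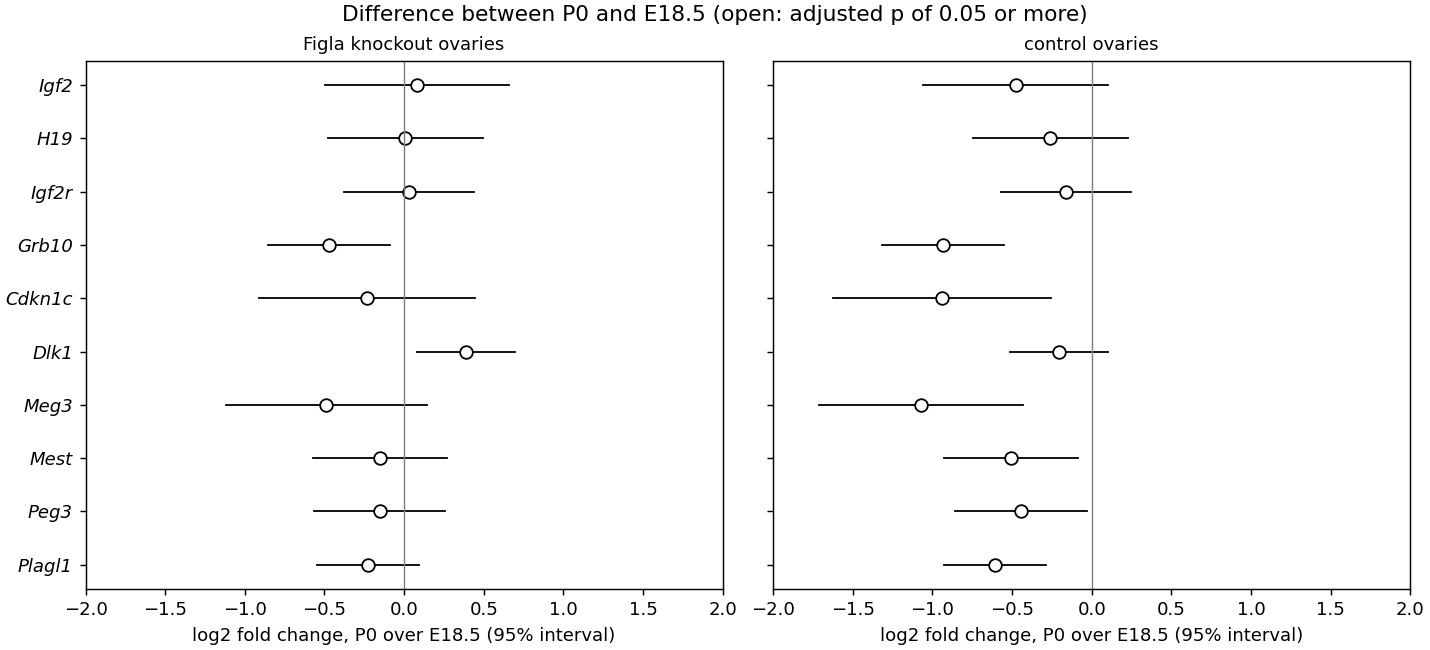
Log2 fold change of each gene, P0 over E18.5, in Figla knockout ovaries on the left and controls on the right, with 95% intervals (edgeR, n = 3 samples a group); all points are open because no adjusted p was under 0.05. All 10 points lie below 0 in controls, and 4 of 10 lie above 0 in knockout ovaries.

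Across the 12 Figla samples the members varied together to different degrees. The correlation of log2 CPM with the mean of all 10 was 0.90 for Mest, 0.89 for Cdkn1c, 0.86 for Peg3 and 0.84 for Igf2, and 0.33 for Dlk1 and 0.29 for Igf2r. Without E18.5 control replicate 3 it was 0.88 for Mest and for Cdkn1c, 0.40 for Dlk1 and 0.16 for Igf2r. Each member is part of that mean, and the samples share age and genotype groups, so these values are a description. Among 10779 genes with a mean of at least 10 CPM, those with the most similar profile to the mean were Ablim3 (r = 0.95), Cep126 (0.95), Plcb3 (0.95), Trank1 (0.95) and Zfp827 (0.94). Trank1, for example, averaged 334 CPM in knockout ovaries and 231 CPM in controls at P0, and 384 CPM in knockout ovaries and 352 CPM in controls at E18.5.

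Further imprinted genes, taken from a list of 43, were called in both directions. The list sorts them as paternally or maternally expressed, and whether they are so in the ovary was not measured. In Figla knockout ovaries at P0, 3 of 20 paternally expressed genes tested were higher and 1 was lower, where 16.0% of all genes were called in either direction, and the median log2 fold change was 0.39. Peg10, a retrotransposon-derived gene needed for the placenta, was higher by 0.88 ± 0.21, Sfmbt2 by 0.87 ± 0.16 and Peg13 by 0.48 ± 0.12, while Snrpn, a splicing protein gene, was lower by a log2 fold change of -0.94 ± 0.20. Of 20 maternally expressed genes tested, 3 were higher and 1 was lower, with a median of 0.22. Among them were Mirg, a non-coding RNA of the Dlk1 and Meg3 cluster, at 0.75 ± 0.21 and Trappc9 at -0.52 ± 0.11.

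In Lhx8 knockout ovaries 2 of 18 paternally expressed genes tested were higher and 1 lower, where 10.4% of all genes were called, and the median log2 fold change was 0.33. Peg10 was higher by 0.83 ± 0.14 and Kcnq1ot1, an RNA antisense to Kcnq1, by 0.96 ± 0.22, and Snrpn was lower at -1.01 ± 0.19. Reads were counted without strand, so where Kcnq1ot1 and Kcnq1 overlap their reads cannot be told apart by strand. Kcnq1 itself had 17.6 to 21.1 CPM in Lhx8 knockout ovaries and 27.1 to 33.3 CPM in controls. Of 17 maternally expressed genes tested, 4 were higher and 2 were lower, with a median of 0.27. Rian, a non-coding RNA of the same cluster as Dlk1 and Meg3, was higher by 0.99 ± 0.22 and Dcn, which encodes the matrix proteoglycan decorin, by 0.64 ± 0.14. Ascl2, a transcription factor gene needed in the placenta, was lower at -1.69 ± 0.47. Its levels were low, at 0.674 to 1.63 CPM in Lhx8 knockout ovaries and 2.49 to 4.54 CPM in controls.

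Among 20 genes of the insulin-like growth factor axis, 17 were tested in each knockout at P0. In Figla knockout ovaries 5 were higher and 1 lower, where 16.0% of all genes were called in either direction and 5.12% higher. The median log2 fold change of the 17 was 0.35. The ligand Igf1 was higher by 0.35 ± 0.10, the docking protein gene Irs1 by 0.56 ± 0.15, and the secreted binding proteins Igfbp5 and Igfbp4 by 0.64 ± 0.12 and 0.50 ± 0.10. Of the RNA-binding proteins that bind Igf2 mRNA, Igf2bp1 was higher by 0.88 ± 0.25 and Igf2bp2 was lower at -0.59 ± 0.12.

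In Lhx8 knockout ovaries 3 of the 17 were higher and 1 lower, where 10.4% of all genes were called in either direction and 3.06% higher. The median log2 fold change of the 17 was 0.52. Igf1 was higher by 0.53 ± 0.13, the binding protein Igfbp2 by 0.96 ± 0.18 and Igf2bp1 by 0.77 ± 0.14, and Igf2bp2 was lower at -0.70 ± 0.16. No gene of these lists was called at E18.5, in the age comparisons or in the interaction by edgeR.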

How the data were processed

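Counts of reads per gene were deposited by the authors as 1 table per library, for 14 Figla and 6 Lhx8 libraries. Per the labels' protocols, poly(A) RNA was purified from total ovary RNA. Figla libraries were prepared by Nextera tagmentation of cDNA and Lhx8 libraries with QuantSeq 3′ chemistry. The submitters' processing notes name cutadapt, HISAT2 and the build GRCm38.p5, with versions of both tools not stated. Per the file headers, the deposited counts were produced by featureCounts 1.6.0 with the GENCODE M12 annotation, unstranded and with default handling of ambiguous reads. Reads over exons of 2 genes could therefore be lost, and reads of antisense partners cannot be told apart by strand. The exon length in the deposited tables was used for FPKM. Symbols matched 49326 of 49585 gene IDs.

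Libraries of a group that differed by a chi-square per degree of freedom under 2, over genes with at least 50 counts, were summed: 2 pairs did (1.12 and 1.32), against 6.62 to 62.3 in 22 other pairs. Counts were fitted with edgeR 4.0.16 in R 4.3.3 (TMM, filterByExpr with minimum count 10 and total 15, quasi-likelihood test, Benjamini-Hochberg over all genes, threshold 0.05). Each knockout was fitted with its own controls, and age and interaction in 1 model of the 4 Figla groups. CPM are on TMM-scaled library sizes. The models were tested on simulated data. Alternatives were RLE scaling, no filter, DESeq2 1.42.0, leaving out samples, other models and other groupings. Ratios to marker counts, and the age model of 2 groups, were chosen after values were seen. The rule for named genes was all 10 members, up to 6 called genes of each other list by size of change, and the 5 genes with the profile most like the members' mean (log2 of CPM plus 0.5). Standard errors are the absolute log2 fold change over the square root of the F statistic, and intervals use the degrees of freedom of the test. The members, the lists and the choice of library names over titles were made with earlier results of these data known. No molecular identifiers are recorded.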

Additional observations from a re-analysis of the deposited data

How the results depend on the processing

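Calls in the Lhx8 and Figla sets rest on grouping by library name, on few samples and on the spread assumed. The number of members called at P0 in the Figla set was 4, and 4 with RLE scaling and 5 with DESeq2, but 2 in 1 model of all Figla groups, 7 without the low-count filter, 6 with deposit order as a replicate block, where Grb10 (adjusted p = 0.00612) and Mest (0.0230) passed, and 2 to 5 with 1 sample left out. In the Lhx8 set it was 4, also with RLE scaling, no filter or DESeq2, and 1 to 4 with 1 sample left out. With the replicate number as a block it was 2; Dlk1 (adjusted p = 0.0796) and Grb10 (0.0962) were lost. Same-numbered Lhx8 samples had correlations of their deviations of -0.175, 0.046 and 0.041, so the numbers were not taken to pair samples. The Figla numbers follow the order of deposit only. In controls between ages the number called was 0, and 4 with no filter, 4 with DESeq2, 3 with near-identical libraries kept apart and 0 to 2 with 1 sample left out. It was 0 under every alternative run at E18.5, in knockouts between ages and for the interaction. Where leaving out a sample left an arm with 2, the spread was shared between groups. The order by TPM matched that by FPKM at all 40 positions.

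Grouping by title gave 0 members at P0 in the Figla set, and 4 in the Lhx8 set, all lower, since it exchanges the groups there. Log2 fold changes that turned round under it were, for the Figla effect at E18.5, Igf2r 0.49, Peg3 0.35 and Cdkn1c -0.30; for the Figla effect at P0, H19 -0.20, Igf2 -0.18, Igf2r -0.093, Meg3 -0.077, Mest -0.20, Peg3 -0.20 and Cdkn1c -0.15; for the Lhx8 effect, H19 -0.12, Igf2 -0.74, Igf2r -0.26, Dlk1 -0.58, Meg3 -0.41, Mest 0.023, Peg3 -0.14, Grb10 -0.65, Cdkn1c -0.96 and Plagl1 -0.020; for the age difference in controls, H19 0.0017, Igf2 0.23, Igf2r 0.32, Dlk1 0.25 and Peg3 0.045; for the age difference in knockouts, H19 -0.21, Igf2 -0.37 and Igf2r -0.25; for the interaction, H19 -0.21, Igf2 -0.60, Igf2r -0.57, Dlk1 -0.12, Mest -0.33 and Peg3 -0.54. With the 8 Figla libraries whose labels agree, which leave E18.5 controls with 1 sample, assumed to vary like the other groups, 2 members were called at P0, and those that turned round were, for the Figla effect at E18.5, Igf2r 0.31 and Peg3 0.32; for the Figla effect at P0, Igf2r -0.0081; for the age difference in controls, H19 0.042, Igf2 0.26, Igf2r 0.16 and Dlk1 0.093; for the age difference in knockouts, H19 -0.078, Igf2 -0.093 and Igf2r -0.14; for the interaction, H19 -0.12, Igf2 -0.35, Igf2r -0.30, Mest -0.016 and Peg3 -0.27. Others that turned round, none of them called, were Grb10 -0.0079 for the Figla effect at E18.5 (1 model of all Figla groups), Grb10 -0.0053 for the Figla effect at E18.5 (both E18.5 samples numbered 3 left out), H19 -0.0065 for the age difference in knockouts (each library as its own sample), H19 -0.0044 for the age difference in knockouts (a model of the 2 groups compared), Peg3 0.012 for the age difference in knockouts (both E18.5 samples numbered 3 left out). With 1 sample left out, log2 fold changes that turned round in at least 1 case ranged, for the Figla effect at E18.5, Igf2 -0.084 to 0.49, Igf2r -0.27 to 0.094, Dlk1 -0.099 to 0.15, Meg3 -0.47 to 0.055, Mest -0.11 to 0.25, Peg3 -0.20 to 0.10, Grb10 -0.13 to 0.15; for the Figla effect at P0, Igf2r -0.0048 to 0.18; for the Lhx8 effect, H19 -0.15 to 0.30, Mest -0.14 to 0.086, Plagl1 -0.081 to 0.15; for the age difference in knockouts, H19 -0.16 to 0.14, Igf2 -0.082 to 0.28, Igf2r -0.16 to 0.20, Peg3 -0.25 to 0.011; for the interaction, Igf2r -0.0023 to 0.36. The cause was not tested.

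The count of all genes called also moved. At E18.5 it was 1, also with RLE scaling, with 0 to 89 when 1 sample was left out, 229 without the low-count filter, 119 with DESeq2, 34 with each library as a sample, 53 in 1 model, 28 with deposit order as a block, 18 without both samples numbered 3, 1093 by title and 1082 with agreeing labels. At P0 in the Figla set it was 2767, with 1423 to 2882 when 1 sample was left out, 1363 in 1 model of all groups, 4680 with deposit order as a block, 1835 with agreeing labels and 0 by title. In the Lhx8 set it was 1582, with 630.0 to 1490.0 when 1 sample was left out, 2682 without a filter and 931 with the replicate block. Between ages it was 0 in controls, with 1252 without a filter, 1551 with DESeq2, 1490.0 with each library as a sample, 1426 by title, 1231 with agreeing labels and 0 to 556 when 1 sample was left out. It was 1 in knockouts, with 530.0 without a filter, 289 with DESeq2, 16 with each library as a sample, 285 with agreeing labels and 0 to 150.0 when 1 sample was left out. The interaction had 0, with 63 without a filter, 208 by title and 148 with agreeing labels. The 95% intervals given show how closely 3 samples a group fix each log2 fold change, and are not limits of detection.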

Other observations

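Within the pairs of neighbouring genes, the ratio of counts was set side by side for each group. H19 had 2.02, 1.97 and 2.03 counts per Igf2 count in Figla knockout ovaries at P0, against 2.20, 2.15 and 2.32 in controls, so the knockout samples lay wholly below the controls. At E18.5 the ratio was 1.97 to 2.42 in knockout ovaries and 1.68 to 2.53 in controls, or 1.77 to 2.53 without control replicate 3, which overlapped. In the Lhx8 libraries, which read 3′ ends, it was 8.07, 13.6 and 18.1 in knockout ovaries and 25.0, 17.0 and 17.7 in controls, which overlapped too. Meg3 had 0.479 to 0.779 counts per Dlk1 count in Figla knockout ovaries and 0.515 to 1.01 in controls at P0, and 0.693 to 1.74 in knockout ovaries and 1.19 to 1.42 in controls at E18.5, where both controls other than replicate 3 were at 1.42. These ratios were chosen after values were seen and were not tested.

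Erythroid markers, which in a whole ovary come with blood, summed to 4909 to 11719 CPM in Lhx8 knockout ovaries and 4134 to 6491 CPM in controls. In Figla ovaries at E18.5 they summed to 1084 to 2932 CPM in knockout samples and 755 to 984 CPM in controls, without overlap, and at P0 to 218 to 914 CPM in knockout samples and 155 to 1227 CPM in controls. Their part in the levels of the imprinted genes was not tested.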
